A study of Mus musculus with 6 samples.

Results

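The genes described are 10 of the piRNA pathway and of the germ granules: Piwil1, Piwil2, Piwil4, Tdrd1, Tdrd5, Tdrd6, Tdrd9, Mael, Mov10l1 and Asz1. They were picked by name, with all probes that carry the gene's symbol, an older symbol or a RefSeq transcript of it, which gave 14 of the 41174 probes of the array. The array named 19503 genes in all. RNA came from 6 samples of male mouse cells of a mixed C57BL/6 129SV background. Embryonic stem cells with an Oct4-GFP transgene carried a vector with tdTomato, either a control or 1 of 2 that express a hairpin (shRNA) targeting Dazl. DAZL binds mRNAs in germ cells and regulates their translation. After 9 or 12 days of differentiation in culture, cells positive for GFP and tdTomato were sorted by flow cytometry and taken as in vitro primordial germ cells. At each day the control and both hairpins were measured on 1 array each, so knockdown stands for 4 arrays and control for 2. The sort rests on the Oct4 reporter alone as a germ cell criterion, and embryonic stem cells also express Oct4. The labels do not say that samples came from separate cultures, so each p-value measures only the spread between these samples.

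PIWI-interacting RNAs, or piRNAs, are small RNAs of the germ line that guide PIWI proteins to transposon transcripts and to the transposons' own DNA. They are made and used in germ granules, cytoplasmic bodies near mitochondria that are built from PIWI proteins, Tudor proteins that bind methylated arginines on PIWI proteins, and RNA helicases. In the mouse male germ line the pathway acts in fetal prospermatogonia, where it directs DNA methylation of transposons, and again after birth in spermatocytes and spermatids. In primordial germ cells several of these genes become active as the germ line genome loses DNA methylation.

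The stretches upstream of the start sites are shown because most of these genes had lower levels together in the knockdown arrays. A window of 250 bases before a RefSeq start site (GRCm38.p6) was found for 8 of the 10 genes, all but Piwil2 and Tdrd6. A pair of short motifs was searched on both strands. CACGTG, the E-box that reads the same on both strands, is a site bound by MAX and its partners. GCGGGA, which reads TCCCGC on the other strand, is part of the site bound by E2F proteins. MGA with MAX and E2F6 are known to hold germ line genes silent in embryonic stem cells. The 2 motifs do not overlap in any of these windows.

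CACGTG was found in 5 of the 8 genes, against 6.86% of 27025 genes in the genome. Counted by window, it was in 6 of the 11 windows of these genes. The Tdrd1 windows that hold it overlap and share the same E-box, which is thus counted more than once. Over the genome it was in 6.02% of 32851 windows, and in 9.18% of the 14127 windows with at least 8 CpG. The 5 windows follow 5′ to 3′ on the strand of the gene, with the motifs in capitals. The E-box lay 223 bases before the start site in Mael and 246 in Mov10l1. It lay 77 before it in this window of Tdrd1, and 11 before the start of another. Piwil1 had E-boxes at 179 and 154 bases, and Tdrd9 at 165 and 95. These distances are to the start site of each window, and a gene can have another start site further upstream. The RefSeq gene begins at 56826171 for Tdrd1 and at 128736071 for Piwil1. The Tdrd1 E-box and the nearer Piwil1 E-box therefore lie within the gene.
Mael, chr1:166238745-166238994, minus strand: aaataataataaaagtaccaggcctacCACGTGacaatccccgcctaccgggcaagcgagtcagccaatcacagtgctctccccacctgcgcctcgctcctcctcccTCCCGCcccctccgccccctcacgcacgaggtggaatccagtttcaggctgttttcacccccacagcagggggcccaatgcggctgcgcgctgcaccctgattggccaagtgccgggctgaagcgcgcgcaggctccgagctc
Mov10l1, chr15:88982744-88982993, plus strand: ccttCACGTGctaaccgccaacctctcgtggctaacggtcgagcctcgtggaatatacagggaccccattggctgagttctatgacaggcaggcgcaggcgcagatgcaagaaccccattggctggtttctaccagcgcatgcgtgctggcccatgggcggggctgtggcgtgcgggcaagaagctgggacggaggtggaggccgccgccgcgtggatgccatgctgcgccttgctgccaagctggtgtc
Piwil1, chr5:128735996-128736245, plus strand: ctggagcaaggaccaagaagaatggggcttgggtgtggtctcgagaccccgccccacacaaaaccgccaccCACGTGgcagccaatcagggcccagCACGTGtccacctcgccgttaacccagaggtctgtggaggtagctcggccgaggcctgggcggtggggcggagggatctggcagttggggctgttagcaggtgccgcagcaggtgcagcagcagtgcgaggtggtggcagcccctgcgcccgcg
Tdrd1, chr19:56826025-56826274, plus strand: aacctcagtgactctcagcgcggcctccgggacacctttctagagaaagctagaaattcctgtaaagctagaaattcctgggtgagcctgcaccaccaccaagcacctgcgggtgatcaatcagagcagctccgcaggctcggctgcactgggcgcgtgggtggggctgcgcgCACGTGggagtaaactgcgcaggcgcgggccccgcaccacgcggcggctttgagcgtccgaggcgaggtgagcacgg
Tdrd9, chr12:111971309-111971558, plus strand: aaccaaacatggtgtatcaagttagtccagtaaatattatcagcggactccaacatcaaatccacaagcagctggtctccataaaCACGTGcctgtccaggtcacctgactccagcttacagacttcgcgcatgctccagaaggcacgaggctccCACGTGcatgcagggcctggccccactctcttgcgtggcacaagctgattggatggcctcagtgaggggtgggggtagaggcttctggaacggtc

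GCGGGA was found in 2 of the 8 genes, Mael at 143 bases before the start site and Tdrd5 at 249, against 18.8% of all genes. Counted by window, it was in 2 of 11, against 16.9% of all windows and 34.6% of those with at least 8 CpG. Tdrd5 and Asz1, the genes with the lowest knockdown values below, had no CACGTG in these windows. Tdrd5 had 40 CpG and Asz1 15, against a median of 6 over all windows. The RefSeq gene of Tdrd5, on the minus strand, reaches to 156304304, so its whole window lies within the gene.
Tdrd5, chr1:156303349-156303598, minus strand: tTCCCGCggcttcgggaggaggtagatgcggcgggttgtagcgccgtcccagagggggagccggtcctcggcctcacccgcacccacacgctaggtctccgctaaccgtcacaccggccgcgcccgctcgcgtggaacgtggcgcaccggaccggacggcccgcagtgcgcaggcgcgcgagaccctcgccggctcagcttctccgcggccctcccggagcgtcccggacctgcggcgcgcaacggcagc
Asz1, chr6:18109062-18109311, minus strand: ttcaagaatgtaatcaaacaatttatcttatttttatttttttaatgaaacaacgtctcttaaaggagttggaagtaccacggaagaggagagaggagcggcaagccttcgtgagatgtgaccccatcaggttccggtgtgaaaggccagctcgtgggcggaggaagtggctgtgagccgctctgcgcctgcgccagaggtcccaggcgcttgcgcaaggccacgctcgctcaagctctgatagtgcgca
These matches describe the letters only. No binding was measured, and the absence of a match says only that the letters are not in the window.

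The share of probes well above background was 70.3% to 73.3% per array, and no probe was saturated. Dazl itself was checked first. Its brightest probe, A_52_P271166, had a knockdown difference of -4.30 on the log2 scale (SE 0.29, adjusted p = 0.0547 in limma), which missed the threshold. Its dimmer probe, A_51_P246060, fell by 4.72 (SE 0.17, adjusted p = 0.00464). Of 10 germ cell markers 9 were on the array, and all 9 were well above background on all 6 arrays. Without Dazl, the knockdown target, the summed level of the other 8, relative to the array's 75th percentile, was 56.2 in the control, 51.8 in hairpin 1 and 55.8 in hairpin 2 at day 9. At day 12 it was 51.2, 51.9 and 55.1, so the sums of control and knockdown arrays overlapped. These sums include Pou5f1 (Oct4), whose reporter was sorted on and which is also among the pluripotency markers. Pou5f1 had 150% and 186% of the control signal at day 9, and 151% and 163% at day 12, for hairpins 1 and 2. Of the 9 markers, Dazl included, 7 had a knockdown difference below 0 and 2 above. Higher in every knockdown array, Pou5f1 added more to their sums than to those of the controls. The overlap of the sums therefore does not show that the markers other than Pou5f1 were alike. The knockdown differences were -0.62 for Dppa3, -0.32 for Ddx4, -0.25 for Prdm1 and -0.13 for Tfap2c. They were -0.10 for Dnd1, -0.04 for Kit and 0.17 for Nanos3. Of these genes only Dppa3 was below the control in all 4 pairs. Summed fibroblast markers were 5.40 and 2.05 in the controls of days 9 and 12, against 5.51 and 8.01 (day 9) and 3.37 and 7.14 (day 12) in hairpins 1 and 2. Summed endoderm markers were 1.03 and 0.966 in controls and 1.70 to 2.61 in knockdown arrays, with Ttr not well above background on any array. Summed pluripotency markers were 103 to 114 in controls and 124 to 140 in knockdown arrays. The blood markers Cd34 and Hbb-bh1 together gave 0.440, 0.435 and 0.520 at day 9 and 0.450, 0.759 and 0.925 at day 12, for control, hairpin 1 and hairpin 2, while Ptprc and Hba-x were not well above background on any array. The part of these marker differences in the results below was not tested, and in bulk samples fewer cells of a type and less RNA per cell cannot be told apart.

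In the knockdown arrays the transcripts of 6 of these genes were lower than in the control of the same day in every pair, and those of 7 were higher at day 12 than at day 9 with every vector. Of all probes well above background on every array, 19% and 19.5% did so. The largest knockdown difference was that of Tdrd5, at 26.9% to 45.5% of the control signal, and the largest day difference that of Asz1, 3.05-fold to 5.76-fold. None of these differences passed the threshold, an adjusted p under 0.05, in the fits without a replicate block. With the vector as a block, the day difference of Asz1 passed, as did the differences of Tdrd5 within each day, all given below. Each level below is the log2 processed signal minus the 75th percentile of its array, so that 0 is the level of the probe at that percentile. It is given for the brightest probe of a gene, in the order control, hairpin 1, hairpin 2. Levels of different probes were not compared.

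**Figure D1:**
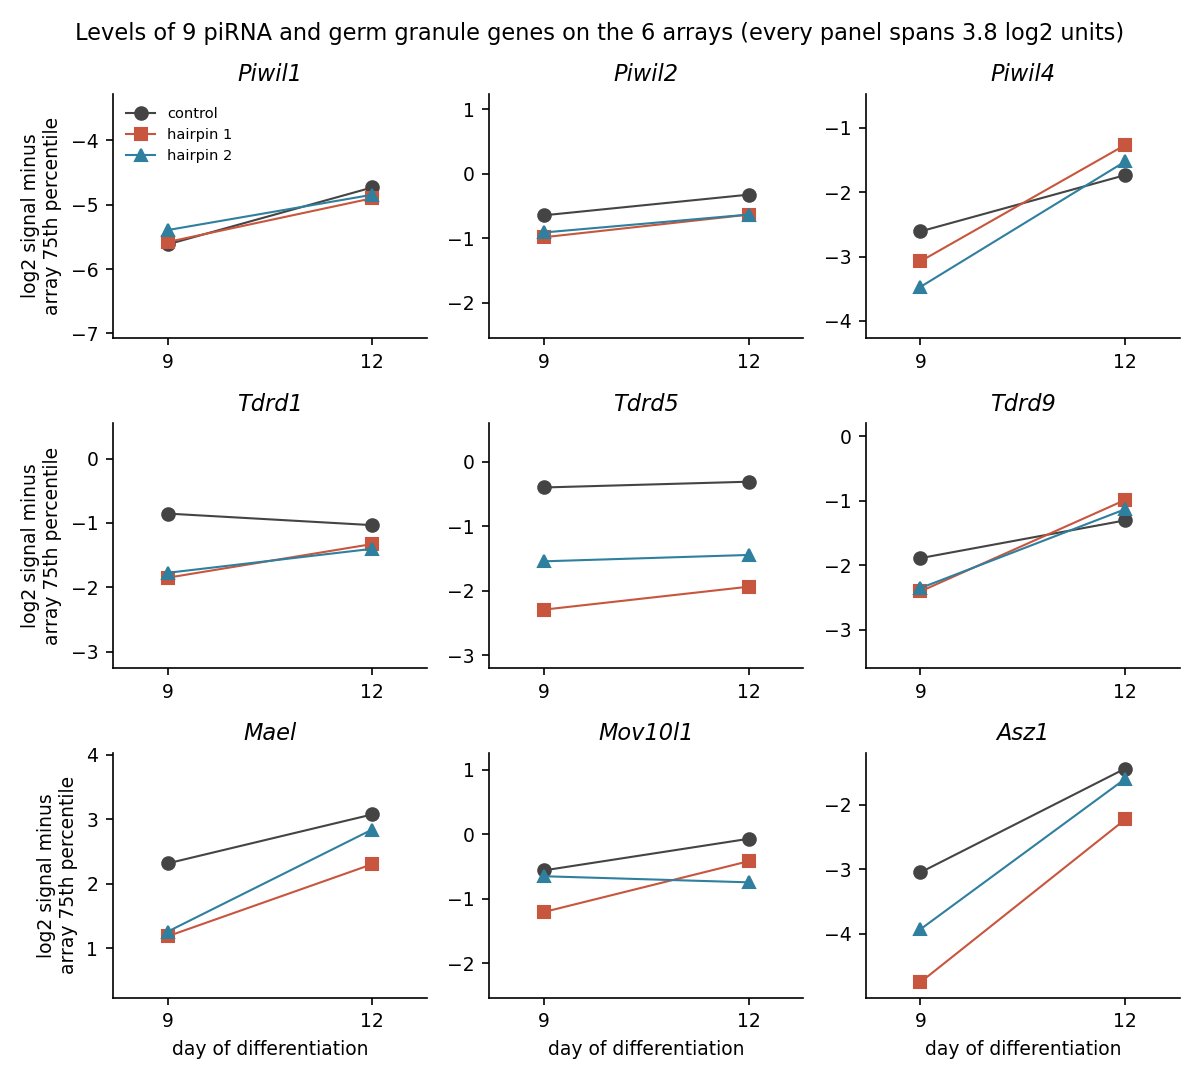
Log2 level (relative to the array's 75th percentile) of the 9 genes measured well above background on all 6 arrays, at days 9 and 12, with 1 array per point and a line joining the arrays of a vector. The control line lies above both hairpin lines for Tdrd5, Tdrd1, Mael, Asz1, Piwil2 and Mov10l1, and most lines run upward from day 9 to day 12.

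PIWI proteins are encoded by 3 of the genes. Piwil2 (MILI), the PIWI protein of fetal and postnatal germ cells that cuts transposon transcripts, had levels of -0.64, -0.98 and -0.91 at day 9. At day 12 its levels were -0.32, -0.63 and -0.63. Both hairpins lay below the control at each day, by nearly the same amount, and each vector was higher at day 12. The knockdown difference was -0.31 (SE 0.13, adjusted p = 0.531 in limma) and the day difference 0.32 (SE 0.13, adjusted p = 0.452).

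Piwil4 (MIWI2), which enters the nucleus and directs DNA methylation of transposons, had levels of -2.61, -3.07 and -3.47 at day 9. At day 12 they were -1.74, -1.27 and -1.53. Its 3 arrays of day 12 were all above the 3 of day 9, while the hairpins lay below the control at day 9 and above it at day 12. The day difference was 1.54 (SE 0.26, adjusted p = 0.125), or 1.83-fold in the control, 3.49-fold in hairpin 1 and 3.85-fold in hairpin 2. The knockdown difference over both days was -0.16 (SE 0.27, adjusted p = 0.890).

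Piwil1 (MIWI), the PIWI protein of spermatocytes and spermatids, had the levels -5.62, -5.58 and -5.40 at day 9. Its levels at day 12 were -4.73, -4.90 and -4.85. The days did not overlap and the vectors lay within 0.22 of each other at each day. The day difference was 0.70 (SE 0.14, adjusted p = 0.170) and the knockdown difference -0.01 (SE 0.15, adjusted p = 0.995). This probe was dim, and with another background correction (normexp) its day difference was -0.17, so that its direction over days depends on that correction.

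Tudor proteins are encoded by 4 of the genes. Tdrd5, needed for the assembly of granules and for transposon silencing, had levels of -0.40, -2.29 and -1.54 at day 9. At day 12 they were -0.31, -1.94 and -1.44. The 4 knockdown arrays, at -1.80 ± 0.39 (SD, n = 4), did not overlap the control arrays at -0.35 ± 0.06 (SD, n = 2). The knockdown arrays kept 26.9% and 45.2% of the control signal at day 9, and 32.3% and 45.5% at day 12, for hairpins 1 and 2. The difference was -1.45 (SE 0.26, adjusted p = 0.260), 2.74-fold lower, and rank 162 of the 30190 probes by p. Over days Tdrd5 differed by 0.18 (SE 0.25, adjusted p = 0.826), and without the day 9 array of hairpin 1 by -0.05.

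Tdrd1, a granule scaffold that binds PIWI proteins, gave -0.85, -1.85 and -1.77 at day 9 and -1.03, -1.33 and -1.40 at day 12. Every knockdown array was below both controls, and the gap was wider at day 9 (50.1% and 52.9% of control) than at day 12 (81.6% and 77.5%). The knockdown difference was -0.64 (SE 0.19, adjusted p = 0.401). The control was slightly lower at day 12 while both hairpins were higher, and the day difference was 0.24 (SE 0.18, adjusted p = 0.689).

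Tdrd9, an RNA helicase that works with MIWI2, had levels of -1.89, -2.40 and -2.35 at day 9. They were -1.30, -0.98 and -1.13 at day 12. As for Piwil4, the days did not overlap, and the hairpins lay below the control at day 9 and above it at day 12. The day difference was 1.08 (SE 0.19, adjusted p = 0.138) and the knockdown difference -0.12 (SE 0.20, adjusted p = 0.889). Tdrd6, a Tudor protein of the chromatoid body of spermatids, was well above background on 3 of the 6 arrays, with levels of -8.83 to -6.41 and no order by vector or day.

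The other 3 genes act beside the PIWI and Tudor proteins. Mael (maelstrom), a granule protein needed for transposon silencing and meiosis, had levels of 2.32, 1.18 and 1.26 at day 9. At day 12 they were 3.08, 2.30 and 2.84. Each hairpin lay below the control of its day, and at day 12 hairpin 2 came within 0.23 of it. The knockdown difference was -0.80 (SE 0.22, adjusted p = 0.395) and the day difference 1.16 (SE 0.21, adjusted p = 0.142).

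Mov10l1, the RNA helicase that feeds precursor transcripts into piRNA production, had levels of -0.56, -1.21 and -0.65 at day 9. Its day 12 levels were -0.07, -0.42 and -0.75. All 4 pairs were below the control, though hairpin 2 at day 9 kept 93.9% of the control signal. The knockdown difference was -0.44 (SE 0.21, adjusted p = 0.559) and the day difference 0.39 (SE 0.20, adjusted p = 0.557), with hairpin 2 slightly lower at day 12.

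Asz1 (GASZ), a scaffold that ties the granules to mitochondria, had levels of -3.05, -4.75 and -3.93 at day 9. At day 12 they were -1.44, -2.23 and -1.60. Every day 12 array was above every day 9 array, and each hairpin was below the control of its day, hairpin 1 further than hairpin 2. The day difference was 2.16 (SE 0.32, adjusted p = 0.117), 4.46-fold, and the ratio of day 12 to day 9 was 3.05 in the control, 5.76 in hairpin 1 and 5.04 in hairpin 2. With the vector as a replicate block the same day difference passed (SE 0.21, adjusted p = 0.0225), in a fit that called 0.812% of all probes. The knockdown difference was -0.88 (SE 0.34, adjusted p = 0.482). With the normexp correction the day difference was 1.09 and the knockdown difference -0.31.

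The comparison of knockdown with control asks which genes differ in cells with little Dazl. All 9 genes measured on every array had a knockdown difference below 0, with Piwil1 at -0.01, and their median was -0.44 against -0.02 over all probes tested. Tested with limma over 30190 probes, 0 of the 9 passed the threshold, which 0.00662% of all probes did. At an unadjusted p under 0.05, 4 of the 9 were lower (Tdrd5, Mael, Tdrd1 and Asz1), against 5.53% of all probes. Piwil2, Tdrd1, Tdrd5, Mael, Mov10l1 and Asz1, 6 of the 9, lay below the control in all 4 pairs, as did 19% of the probes well above background on all arrays. Piwil1 turned above 0 with quantile normalization (0.04), with normexp (0.26) and after subtracting the chromosome's median (0.05), and Piwil4 with normexp (0.09). Without the control array of day 9 the median was -0.33 and Piwil4 and Tdrd9 had 0.34 and 0.24, and without the control array of day 12 the median was -0.66.

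**Figure D2:**
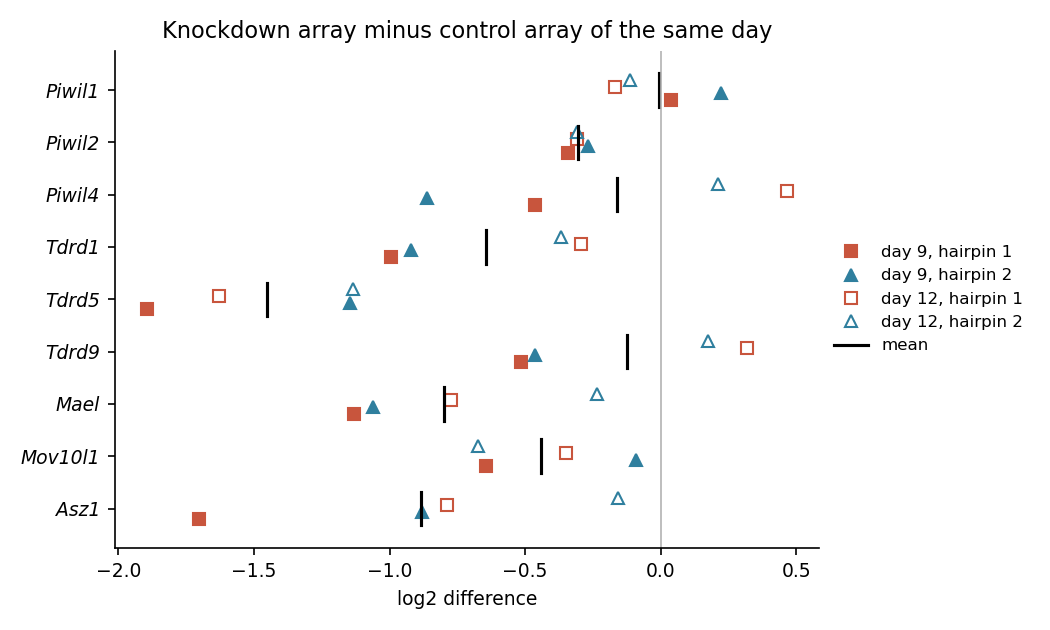
Log2 difference between each knockdown array and the control array of its day for 9 genes, with filled symbols for day 9, open symbols for day 12, squares for hairpin 1, triangles for hairpin 2 and a bar at the mean of the 4. All 4 points lie below 0 for Piwil2, Tdrd1, Tdrd5, Mael, Mov10l1 and Asz1, and the Tdrd5 points reach -1.90.

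Tdrd5 and Mael lie on chromosome 1, whose probes as a whole were lower in the knockdown arrays. Over 1397 probes of chromosome 1 the median difference was -0.20, against -0.04 to 0.05 for the other 18 autosomes. The 4 pairs gave chromosome 1 medians of -0.24, -0.28, -0.19 and -0.16, and 42% of its probes lay below the control in all 4 pairs. After subtracting each chromosome's median from each array, Tdrd5 had -1.20 (SE 0.28, adjusted p = 0.339) and Mael -0.55 (SE 0.23, adjusted p = 0.516). Both remained below 0. In that limma fit 3 of the 9 genes had an unadjusted p under 0.05, as did 2509 of 25926 probes, and Mael was no longer among them.

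The comparison of days asks how the cells differ between 9 and 12 days of differentiation. All 9 genes were higher at day 12, with a median difference of 0.70 against 0.00386 over all probes. In limma 0 of the 9 passed, against 0.0563% of all probes, and at an unadjusted p under 0.05 6 were higher (Asz1, Piwil4, Mael, Tdrd9, Piwil1 and Piwil2), against 6.47%. Piwil1, Piwil2, Piwil4, Tdrd5, Tdrd9, Mael and Asz1, 7 of the 9, were higher with all 3 vectors, as were 19.5% of the probes well above background on all arrays. The 3 arrays of a day lay on 1 slide and were scanned together, and the effects of day and slide cannot be told apart. With the normexp correction the median was 0.34, while that of all probes was -0.14.

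**Figure D3:**
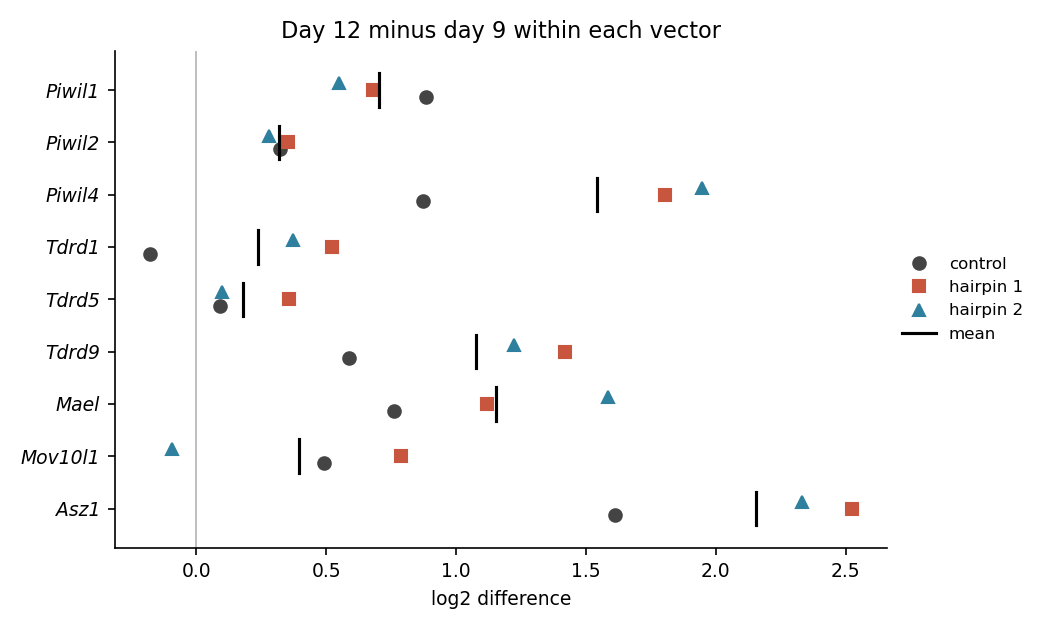
Log2 difference between day 12 and day 9 within each vector (control, hairpin 1, hairpin 2) for 9 genes, with a bar at the mean. Asz1, Piwil4, Mael, Tdrd9 and Piwil1 have all 3 points well above 0, and Tdrd5, Tdrd1 and Mov10l1 have points near or below 0.

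By their brightest probes, both patterns held in Piwil2, Tdrd5, Mael and Asz1, which were below the control in all 4 pairs and higher at day 12 in all 3 vectors. Of all probes well above background on every array, 5.82% did so. For Tdrd5 the day difference was only 0.09 in the control and 0.10 with hairpin 2. Its dimmer probe was lower at day 12 with hairpin 2, as given below. Since the 2 comparisons use the same 6 arrays, they are not separate evidence.

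The knockdown differences were also taken at each day. The median over the 9 genes was -0.66 at day 9, with 8 below 0, and -0.33 at day 12, with 7 below 0. In these fits the lone control of a day is assumed to vary like the knockdown pairs. In limma 0 of the 9 passed at either day, as 0% of all probes did. At an unadjusted p under 0.05, 4 genes were lower at day 9 (2.1% of all probes) and 1, Tdrd5, at day 12 (2.34%). Tdrd5 had -1.52 (SE 0.41) at day 9 and -1.38 (SE 0.41) at day 12. The vector as a replicate block was added to limma after the data were seen and left 1 residual degree of freedom. With it these values had adjusted p = 0.0298 and adjusted p = 0.0494, in a fit that called 0.672% and 0.689% of all probes. There each hairpin has its own term, so these p-values do not take in the spread between the hairpins. They are no measure of how the knockdown varies from hairpin to hairpin.

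Below the control in both pairs of day 9 were 8 of the 9 genes, all but Piwil1, against 33.5% of probes. At day 12 it was 7, all but Piwil4 and Tdrd9, against 40.1%. The difference between the days' knockdown effects had a median of 0.59 over the 9 genes, and 6 of them were above 0. None passed in limma, and 0 had an unadjusted p under 0.05, against 0.712% of probes above 0 and 0.798% below. Piwil4 and Tdrd9 lay below the control at day 9 and above it at day 12 in every pair, as 7.36% of probes did, and Piwil1 did the opposite, as 5.99% did. With normexp the median difference between days was 0.00394.

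**Figure D4:**
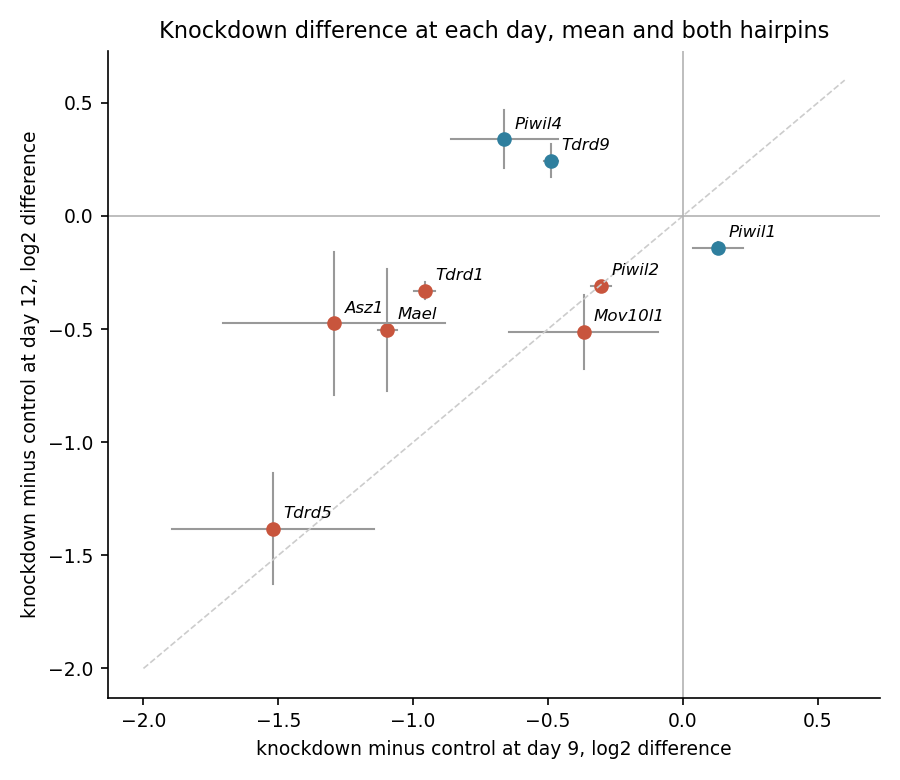
Mean knockdown difference (log2) of both hairpins at day 9 (horizontal) against that at day 12 (vertical) for 9 genes, with grey lines spanning the 2 hairpins and a dashed line of equal values. Tdrd5, Piwil2 and Mov10l1 lie near the dashed line, Asz1, Mael and Tdrd1 above it, and Piwil4 and Tdrd9, in blue with Piwil1, on the other side of 0 at day 12.

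The hairpins were also set against each other. They are numbered here as in the sample titles; the names of the scanner files number them otherwise, but pair the same arrays across the days. Tdrd5 and Asz1 were less low with hairpin 2 at both days. The difference of hairpin 2 from hairpin 1 was 0.62 for Tdrd5 (SE 0.18, adjusted p = 0.334) and 0.73 for Asz1 (SE 0.26, adjusted p = 0.429). In limma 0 of the 9 passed, against 0.00331% of all probes, and these 2 were the genes with an unadjusted p under 0.05 (5.16% of probes in that direction). For Piwil1, Piwil2, Tdrd5, Mael and Asz1, 5 of the 9, hairpin 2 was above hairpin 1 at both days, against 30.3% of probes. The median over the 9 genes was 0.11.

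A further probe was present for 4 of the genes. The dimmer Tdrd5 probe, A_52_P390091, was well above background on 3 arrays and had levels of -5.21, -8.69 and -5.67 at day 9 and -4.78, -7.18 and -7.03 at day 12. At day 12 neither knockdown array was well above background. With each raised to at least the lowest level flagged well above background on its array, this probe was 4.23-fold lower there. That floor is not a strict limit, since spots above it can go unflagged. The brighter probe gave 32.3% and 45.5% of control at day 12, a smaller difference. At day 9 the brighter probe gave 45.2% of control for hairpin 2 and the dimmer 72.5%. The day difference with hairpin 2 was 0.10 by the brighter probe and -1.35 by the dimmer. Whether Tdrd5 was higher at day 12 with all 3 vectors thus depends on the probe.

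The dimmer Mov10l1 probe, A_52_P240424, had a knockdown difference of -0.82 (SE 0.25, adjusted p = 0.416) and a day difference of 0.84 (SE 0.24, adjusted p = 0.295). Both had the direction of the brighter probe and were larger in size. For hairpin 2 the probes differed. At day 9 it had 35.6% of the control signal by the dimmer probe and 93.9% by the brighter. Its day difference was 1.40 by the dimmer and -0.09 by the brighter. Whether Mov10l1 was higher at day 12 with all 3 vectors thus depends on the probe. The dimmer Tdrd1 probe, A_51_P478238, was well above background on the control array of day 12 alone. With the floor used for the dimmer Tdrd5 probe, the knockdown was 1.28-fold lower at day 12. The dimmer Piwil4 probe, A_51_P299795, was not well above background on any array.

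The wider pathway was described with a list of 28 other genes, of which 25 were on the array, 24 were kept for the tests and 22 were well above background on every array. In the knockdown comparison 22 of the 24 were below 0 and 2 above, with a median of -0.36. In limma 0 passed, and at an unadjusted p under 0.05 there were 6 lower and 1 higher, against 5.53% and 4.35% of all probes. The 1 higher was Henmt1, measured close to background and described below. Of the 22, 11 lay below the control in all 4 pairs, against 19% of probes. The largest differences were those of Stk31, a Tudor-domain kinase (-0.77, SE 0.16, adjusted p = 0.306), Rnf17, a Tudor protein of spermatids (-0.76, SE 0.34, adjusted p = 0.537), Gtsf1, a zinc finger partner of PIWI proteins (-0.75, SE 0.20, adjusted p = 0.386), and Fkbp6, a co-chaperone of PIWI loading (-0.71, SE 0.20, adjusted p = 0.394).

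Over days 16 of the 24 were higher and 8 lower, with a median of 0.13, where 50.6% of all probes were higher. At an unadjusted p under 0.05 in limma, 4 were higher, against 6.47% of all probes. Of the 22 well above background on every array, 7 were higher in all 3 vectors, against 19.5% of such probes. Henmt1, which methylates the ends of piRNAs, was the 1 gene that passed, as 0.0563% of all probes did. It rose by 1.57 (SE 0.14, adjusted p = 0.0488 in limma). Its levels were -7.53, -7.12 and -7.18 at day 9 and -6.15, -5.47 and -5.52 at day 12, higher in all 3 vectors. The probe was well above background on 3 of 6 arrays, those of day 12. With the floor used above for the dimmer Tdrd5 probe, which is not a strict limit, it was 2.51-fold higher there. Its other probe was well above background on 1 array. Under knockdown that probe had 43.5% to 64.4% of the control signal, where the probe used had 128% to 161%. The direction of Henmt1 under knockdown thus depends on the probe, both close to background. With normexp the day value was -0.19. The call was also lost with quantile normalization (adjusted p = 0.0865), in a fit on the authors' table (adjusted p = 0.0673), without the filter (adjusted p = 0.0753), with a trend and robust prior (adjusted p = 0.0970) and when any 1 array was left out (adjusted p = 0.0693 to 0.384). Fkbp6 (1.27, SE 0.18, adjusted p = 0.116) and Gtsf1 (1.20, SE 0.19, adjusted p = 0.121) had the next largest differences and, like Mael and Asz1, were below the control in all 4 pairs.

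**Figure D5:**
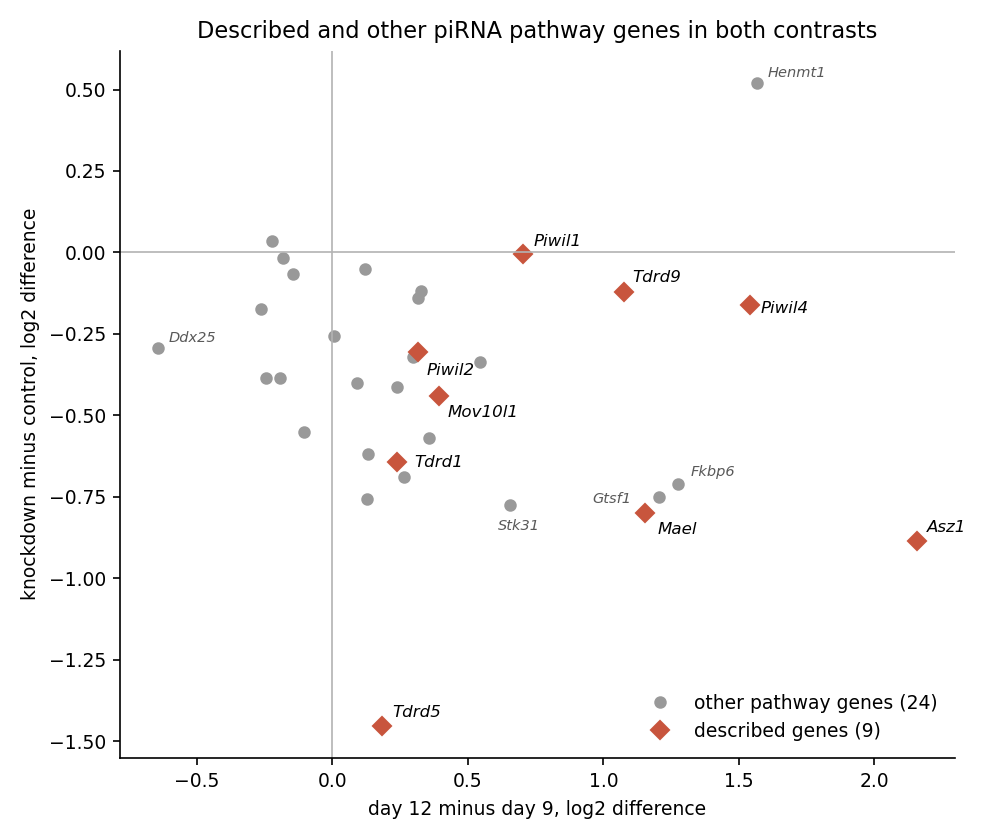
Knockdown difference (vertical, log2) against day difference (horizontal, log2) for the 9 genes described (diamonds) and 24 other pathway genes (grey circles). Gtsf1 and Fkbp6 lie beside Mael, Asz1 is farthest to the right at 2.16, Tdrd5 is lowest at -1.45, and Henmt1, measured close to background, stands alone at the upper right.

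To describe the shared pattern, each gene's level was centred over the 6 arrays. The levels of each gene correlated with the mean of the other 8 at r from 0.50 (Tdrd5) to 0.97 (Mael). Across 5053 probes that varied by at least 1 log2 unit over the arrays, the 5 named genes most like the mean of the 9 were Fkbp6 (r = 0.996), Tmsb15a (0.994), Pcsk5 (0.992), 1700028K03Rik (0.991) and Scml2 (0.990). Each r is over 6 arrays that share the same vectors and slides, and it describes these arrays only. Fkbp6 had levels of 4.06, 2.93 and 3.12 at day 9 and 4.90, 4.46 and 4.57 at day 12, lowest in hairpin 1 at day 9 and highest in the control at day 12.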

How the data were processed

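Total RNA of 6 samples was hybridised, 1 sample per array, to 1-colour Agilent mouse arrays. Per the file headers, the deposited scanner files hold spot intensity values from Agilent Feature Extraction 9.1.3.1, background-subtracted and not normalized between arrays. The deposited value table holds a ratio, each signal over a constant of its array, per the match of its values to the scanner files, and a quality score per spot that the authors deposited without stating how it was made. Aligning or normalizing steps beyond these are not given in the sources used here.

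Spots of a probe were averaged, intensities taken to log2 and each array's 75th percentile set to 0. Of 41174 probes, 30190 were well above background on at least 2 arrays and were tested with limma 3.58.1 in R 4.3.3, two-sided, with p adjusted by Benjamini-Hochberg over all of them and called under 0.05. The fits were knockdown against control with day as a term, day 12 against day 9 in the same fit, 4 groups for the knockdown at each day and the difference, and day with vector for the hairpins. The brightest probe stood for a gene. Probes were named by accession (22951), symbol (6659) or synonym (3096) in the RefSeq table of GRCm38.p6, which also gave chromosomes and promoter windows. Of the genes described, every one is named; of the other pathway genes, any that passed, or else the 4 of largest difference in each comparison, are named; likeness was ranked by r with the mean of the centred levels. The genes and lists were chosen with earlier results of these data known.

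Each vector had the same place on both slides (2 for control, 3 and 4 for the hairpins), and effects of place and vector cannot be told apart. Arrays of the same vector deviated together across days, with r of 0.41, 0.55 and 0.23 over probes, so the vector was also fitted as a replicate block. In that fit each hairpin had its own term and the knockdown was taken from their mean, which leaves the difference between hairpins out of the spread. On simulated data for the knockdown comparison over 30190 probes, of 200 changed probes 0 were recovered at a log2 difference of 1, 140 at 2 and 175 at 3. Precision is limited by the number of arrays. Alternatives were quantile and normexp normalization, the authors' table, other filters, a trend and robust prior, 1 probe per gene, centring by chromosome, the block and leaving out each array.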

Additional observations from a re-analysis of the deposited data

Results flagged for a closer look

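For 3 genes the knockdown effect went one way in both pairs of day 9 and the other way in both pairs of day 12. The day 12 effect minus the day 9 effect was 1.002 for Piwil4 (SE 0.41), 0.73 for Tdrd9 (SE 0.34) and -0.27 for Piwil1 (SE 0.34), on the log2 scale. The interaction term of limma did not pass for any of the 3 (adjusted p = 0.9999 for each). No cause was weighed.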

How the results depend on the processing

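The 4 arrays of knockdown, 2 of control, 1 slide per day and signals close to background for Piwil1, Tdrd6 and Henmt1 limit these results. The count of probes past the threshold moved most. For knockdown against control (2 probes) it was 1 on the authors' table, 0 with 1 probe per gene, 4 with the vector as replicate block, and 0 to 1 when 1 array was left out. For day 12 against day 9 (17 probes) it was 10 with quantile normalization, 1 with normexp, 5 on the authors' table, 0 without a filter, 4 with a trend and robust prior, 30 with 1 probe per gene, 245 with the block, and 0 to 3 when 1 array was left out. For the knockdown at day 9, at day 12 and their difference (0 probes each) the block gave 203, 208 and 22. For the hairpins (1 probe) normexp gave 91, no filter 0, the filter on all 6 arrays 3, the trend 30, 1 probe per gene 14, and leaving out 1 array 0 to 1560. The block changed no other call of a described gene than those of Asz1 and Tdrd5 given above.

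Normexp shifted the median of all probes to 0.12 for knockdown and -0.14 for day. The median over the 9 genes with normexp was 0.34 for day, -0.30 for knockdown at day 9 and 0.00394 for the difference between days. Without 1 array it was -0.86 to -0.65 at day 9, -0.33 to -0.23 at day 12, 0.32 to 0.63 for the difference and 0.0116 to 0.21 for the hairpins. Directions that turned were, for Piwil1, the day difference with normexp (-0.17) and the knockdown difference with quantile normalization (0.039), normexp (0.26), centring by chromosome (0.053) and without 1 array (-0.14 to 0.13). Piwil4 under knockdown turned with normexp (0.088) and without 1 array (-0.66 to 0.34). Tdrd9 under knockdown turned only without 1 array (-0.49 to 0.24). The day difference of Tdrd5 was -0.046 to 0.38 without 1 array, and Henmt1 over days was -0.19 with normexp. The causes were not tested. Of 299 alternative values for named genes, 270 kept their direction and side of the threshold. The other filters, the prior, 1 probe per gene and the block changed only the probes tested or the spread. The direction could not change in those, so this count is no measure of how stable the directions were.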
